A study of Drosophila melanogaster with 4 samples.

Results

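The enriched regions of histone H3 dimethylated at lysine 4 (H3K4me2) on chromosome arm 3L of Drosophila melanogaster are described here. They are all regions that the authors' list of each H3K4me2 immunoprecipitate placed on 3L, the left arm of the third chromosome. There were 918 in replicate 1 and 907 in replicate 2, which is 1825 of the 9453 regions in both lists, or 19.3%. The chromatin came from wild-type Oregon-R larvae in the 3rd instar, the stage that ends in pupariation. Their tissue was homogenised and crosslinked with formaldehyde before chromatin immunoprecipitation with an Active Motif antibody and sequencing (ChIP-seq), and the samples are labelled as nuclei. The study held 2 H3K4me2 immunoprecipitates and 2 inputs of sonicated chromatin that had not been selected by antibody, all of this strain, genotype and stage. Each immunoprecipitate had been paired with the input of its own replicate number. Larvae were harvested from bottles, so a sample holds many animals and tissues, and a mark on few cells cannot be told apart from a weak mark on many. Nothing in the labels says that the replicates came from separate collections, and their spread may therefore be technical only. Positions are in FlyBase release 5, and the sequencing depth behind the lists is unknown.

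H3K4me2 is placed by SET-domain methyltransferases and is found over promoters and enhancers, chiefly of active genes and of genes held ready for expression. The third chromosome has its centromere in the middle. On 3L the coordinates run from the telomere to the centromere, so the high-coordinate end of the assembled arm lies at or in pericentromeric heterochromatin. Such heterochromatin is rich in repeats, poor in genes and marked mainly by methylation of lysine 9 of the same histone. The arm carries, among many other genes, the ecdysone-induced transcription factor genes Eip74EF and Eip75B, which respond to the steroid pulses at the end of larval life, and the small heat-shock genes Hsp23 and Hsp26. No region below was assigned to a gene.

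H3K4me2 regions covered 3.95 Mb of the 24.5 Mb of 3L in replicate 1 and 3.85 Mb in replicate 2, or 16.1% and 15.7%. The mean of 15.9% ± 0.290 on 3L compares with 15.3% ± 0.250 on 2L, 17.6% ± 0.334 on 3R and 17.7% ± 0.169 on X (SD, n = 2). In each library 3L lay above 2L and below 3R, with differences of 0.597 and 0.540 percentage points for 3L minus 2L and of -1.72 and -1.66 points for 3L minus 3R, in replicates 1 and 2. The arm had 37.2 ± 0.317 regions per Mb, against 35.4 ± 0.553 on 2L, 39.3 ± 0.608 on 3R and 35.9 ± 0.0315 on X (SD, n = 2). 3L carried more regions per Mb than X, by 1.30, while a smaller share of it was covered, but with only the regions that scored above their list's median the first difference turned to -1.21 regions per Mb. Arms were compared in 36 comparisons, for 12 measures and 3 other arms, by an exact permutation test that swaps the arms within each library. With 2 libraries the smallest two-sided exact permutation p is 0.5, which 31 of the comparisons gave (0.581 after Benjamini-Hochberg adjustment) and which lies above any usual threshold. The other 5, in which the libraries differed in sign, gave an exact p of 1. The arms are therefore set beside the spread between replicates. All arms of a library share its antibody reaction and its depth.

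**Figure D1:**
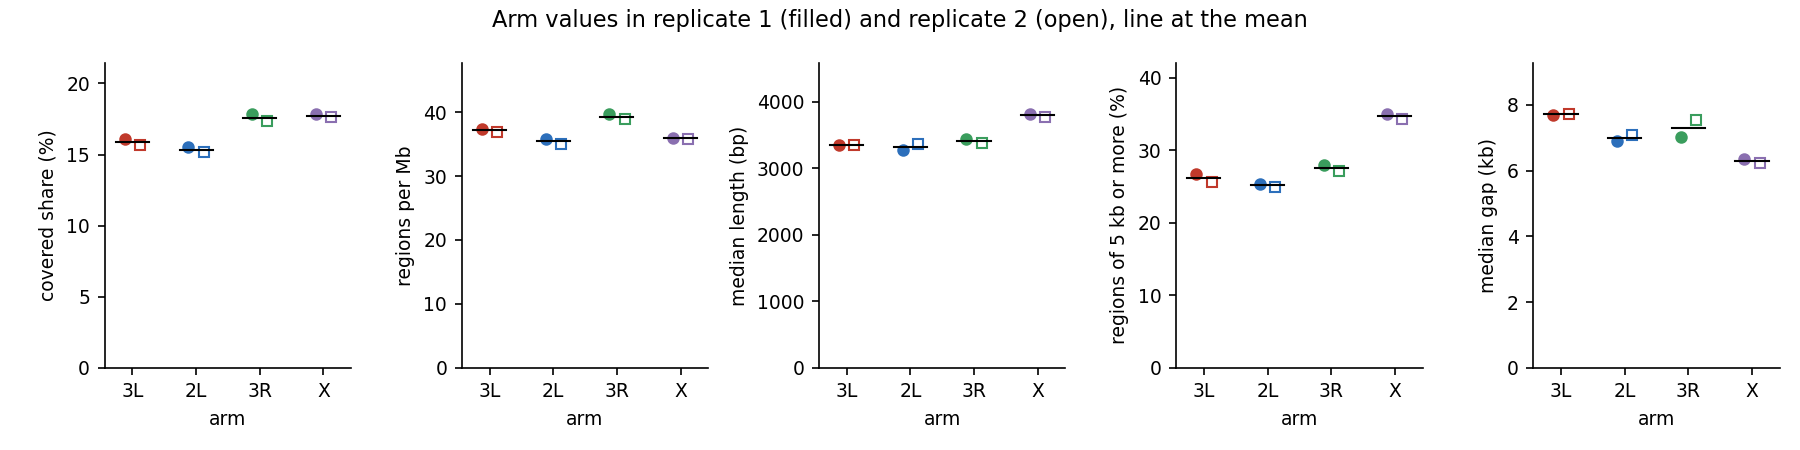
Covered share, regions per Mb, median region length, share of regions of 5 kb or more and median gap between neighbouring regions, for arm 3L and for 2L, 3R and X, in each replicate. Each axis starts at 0. By its mean, 3L lies between 2L and 3R in the first 4 panels, and it has the longest median gap, at 7.71 kb.

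Regions on 3L had nearly the same lengths in both libraries, and very long ones made up a smaller share than on 3R or X. Replicate 1 had a median length of 3352 bp on 3L with quartiles of 2503 and 5116 bp. Replicate 2 had a median of 3358 bp there, and its quartiles were 2523 and 5048 bp. The shortest was 1302 bp and 1303 bp, and the longest 25.4 kb in each. Medians on the other arms were 3275 and 3362 bp on 2L, 3442 and 3376 bp on 3R, and 3822 and 3779 bp on X. The difference between 3L and 2L changed sign between libraries (77.0 and -3.50 bp), so these arms did not differ beyond their spread, whereas the difference between 3L and X was -446 bp on average and of the same sign in both libraries. The length limits of the authors' caller are not known.

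Broad regions held close to 50% of the marked sequence of 3L. Replicate 1 had 245 regions of at least 5 kb and replicate 2 had 232, a share of 26.1% ± 0.785 on 3L, against 25.2% ± 0.301 on 2L, 27.6% ± 0.540 on 3R and 34.7% ± 0.497 on X (SD, n = 2). They held 49.4% and 47.2% of marked bases on 3L, against 48.7% and 47.8% on 2L, 52.0% and 51.1% on 3R and 60.4% and 59.2% on X. Regions of 10 kb or more numbered 47 and 38, a share of 4.65% ± 0.658 on 3L, against 5.15% ± 0.0805 on 2L, 6.52% ± 0.0926 on 3R and 8.51% ± 0.256 on X (SD, n = 2). On 3L these held 15.8% and 12.7% of marked bases. In both libraries the share of regions at or above either limit was lower on 3L than on 3R and X. Of classes bounded at 2, 3, 5 and 10 kb, the most numerous was 2 to 3 kb, with 301 and 310 regions, or 32.8% and 34.2%, against 30.1% and 30.6% on 2L, 3R and X together.

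**Figure D2:**
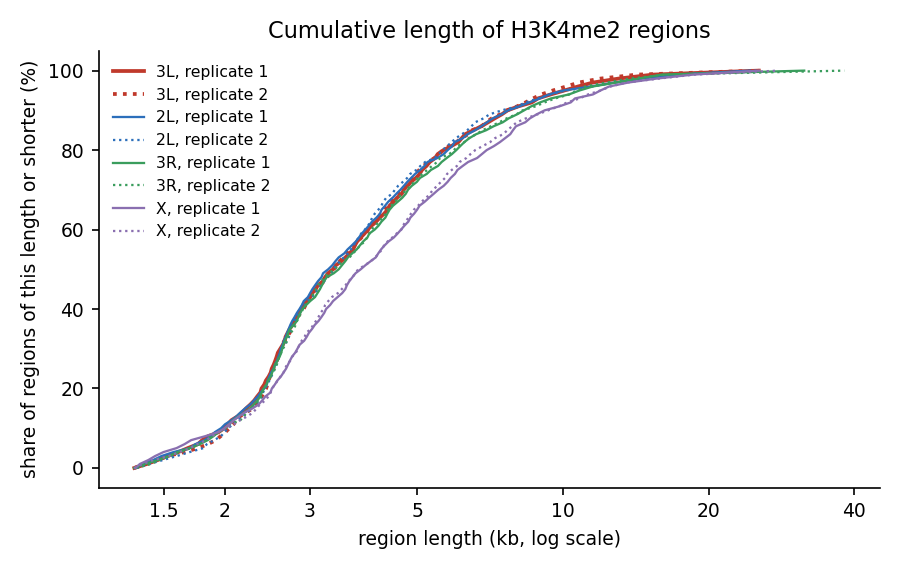
Cumulative share of regions by length, for arm 3L and for 2L, 3R and X, with replicate 1 solid and replicate 2 dotted; the length axis is logarithmic. The curves of 3L follow those of 2L, with medians of 3352 and 3358 bp on 3L, and the curves of X lie to the right of them above 3 kb and cross them among the shortest regions.

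The regions named next were ranked by the shorter of their 2 lengths, among pairs in which each region overlapped only the other. Long regions that the other list splits are therefore left out. On 3L, 24 regions of replicate 1 overlapped more than 1 of replicate 2, and 15 of replicate 2 more than 1 of replicate 1. The longest region on 3L found in both replicates was 25.4 kb long in each. It spanned 3L 19886314 to 19911704 in replicate 1. It was followed by 3L 9438056 to 9457918, of 19.9 kb in replicate 1 and 18.7 kb in replicate 2, and by 3L 9703704 to 9722455, of 18.8 and 18.7 kb. The next, 3L 16571628 to 16590284, was 18.7 and 17.4 kb long, and 3L 9415331 to 9431439 was 16.1 and 16.6 kb long. The regions of ranks 2, 3 and 5 lay within 307 kb, between 9415331 and 9722455. The remaining 5 were 3L 538139 to 554508, 3041449 to 3056709, 3896081 to 3910378, 21015842 to 21029883 and 3157578 to 3171549, of 14.0 to 16.4 kb in replicate 1. All coordinates without a named replicate are those of replicate 1. The one nearest to the centromeric end, at 21015842, lay 3.51 Mb from it.

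Of the 10 regions found in both replicates with the highest mean deposited scores, 9 were longer than the upper quartile of 3L in each replicate. This ranking leaves out the highest score of replicate 1, 2.87, which belonged to a region of 1431 bp without a counterpart, described with the unmatched regions. The first, 3L 1773195 to 1779060, was 5.87 kb long in replicate 1 and scored 2.78 in replicate 1 and 2.49 in replicate 2. The second was 3L 19796221 to 19802705 (6.49 kb, scores 2.69 and 2.44), the third 3L 7230752 to 7238660 (7.91 kb, 2.63 and 2.31), and the fourth 3L 209237 to 214751 (5.52 kb, 2.58 and 2.32). A neighbour of the fourth, 3L 197223 to 207964 (10.7 kb, 2.59 and 2.21), was also among the first 10, and the 2 regions were 1.27 kb apart in replicate 1. The other 5 were 3L 7372664 to 7376851, 16600717 to 16609341, 5126521 to 5136063, 2369585 to 2379401 and 8592137 to 8598136, with mean scores between 2.38 and 2.45. No region was among both the 10 longest and the 10 highest-scoring. The highest-scoring region of rank 6 began 10.4 kb after the end of the long region at 16571628. Scores were the authors' own, on a scale the files do not state, and serve here to rank regions and to describe groups of them within a list. On 3L the median score was 0.39 in replicate 1 and 0.38 in replicate 2 for regions under 2 kb, 1.72 and 1.59 for those of 3 to 5 kb, and 1.93 and 1.74 for those of 5 to 10 kb. Length and score were related within each list, at a Spearman rho of 0.726 across the regions of 3L in both replicates, which are not independent of each other.

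Spacing on 3L was uneven, with many close neighbours and a long tail of wide gaps. The median gap between neighbouring regions was 7.69 kb in replicate 1 and 7.73 kb in replicate 2, and the mean was 22.3 and 22.7 kb. The 25th percentile was 2.46 and 2.38 kb, and the 90th was 57.5 and 57.6 kb. The mean of the medians was 7.71 kb ± 0.0272 on 3L, against 6.99 kb ± 0.127 on 2L, 7.29 kb ± 0.362 on 3R and 6.29 kb ± 0.0675 on X (SD, n = 2). Gaps of 50 kb or more numbered 116 and 115 and took up 48.7% ± 0.701 of 3L, against 52.1% ± 0.922 of 2L, 46.0% ± 0.0411 of 3R and 53.0% ± 0.375 of X (SD, n = 2). The typical gap was thus longest on 3L in both libraries, while wide gaps took up less of 3L than of 2L or X. A region's length had almost no relation to its nearer gap (Spearman rho -0.0846 over 916 regions in replicate 1 and -0.0988 over 905 in replicate 2, across regions of one library).

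Gaps under 500 bp numbered 64 and 58 on 3L, or 6.98% and 6.40% of its gaps. This was near the 7.17% and 6.34% of 2L and the 7.40% and 7.01% of 3R, while X had 10.7% and 9.09%. On 3L such gaps tied 124 regions of replicate 1 into 60 runs and 109 of replicate 2 into 51, and 33 runs overlapped between the replicates. The longest run in both spanned 3L 9703704 to 9725134 (21.4 kb in replicate 1, 21.3 kb in replicate 2), with 2 regions in each, so it extends a region already among the 10 longest. The next were 3L 16030865 to 16047830 (17.0 and 16.9 kb) and 3L 6733771 to 6750421 (16.7 and 16.6 kb, with 2 regions in replicate 1 and 3 in replicate 2). Regions filled at least 97.7% of each of these runs in either replicate.

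Stretches of 100 kb or more without a region in either replicate numbered 43 and took up 28.5% of the arm. The longest was 3L 24226274 to 24529976 (304 kb), close to the centromeric end. That rank rests on 1 region: replicate 2 alone had a longer gap, of 351 kb, in the interior of the arm, which in replicate 1 was split by the region at 13567805 described with the unmatched regions. The next were 3L 13569236 to 13858649 (289 kb), 3L 23733133 to 24021172 (288 kb), 3L 15234130 to 15491219 (257 kb) and 3L 9967464 to 10215928 (248 kb). The numbers of combined-list regions that overlapped them by at least 1 bp, in the same order, were 1, 0, 1, 1 and 2. In the first stretch this was 3L 24223983 to 24226288, and in the third 3L 24021167 to 24024528. Both are flanking regions found in both replicates that only crossed the edge, so the combined list had none wholly inside these 2 stretches. The longest stretches on the other arms were 478 kb on 2L, 334 kb on 3R and 367 kb on X. Of the 43 stretches on 3L, 7 ended in the last 2 Mb, where they took up 75.6% of the sequence, against 24.3% of the rest of the arm.

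Coverage along 3L alternated between densely and sparsely marked sequence, and both libraries followed the same profile. In the 24 complete windows of 1 Mb the mean covered share was at least 2.45% and at most 23.7% (median 17.3%), and the largest gap between replicates in a window was 1.16 percentage points. The most covered were 3L 16000001 to 17000000 at 24.2% and 23.1% in replicates 1 and 2, 3L 1000001 to 2000000 at 24.1% and 23.0%, and 3L 8000001 to 9000000 at 23.4% and 22.9%. The least covered were 3L 23000001 to 24000000 at 2.44% and 2.47%, 3L 10000001 to 11000000 at 6.46% and 6.48%, and 3L 22000001 to 23000000 at 9.56% and 9.21%. 8 windows lay between 20 and 25%, and none exceeded 25%. That limit depends on where the windows start, since the megabase that lies 4 to 5 Mb from the centromeric end reached 27.9% ± 0.284 (SD, n = 2). At 250 kb the range widened to between 0 and 44.7%, with 3L 3000001 to 3250000 the highest (45.4% and 44.0%) and 3L 23750001 to 24000000 and 3L 24250001 to 24500000 without a region. Among the 245 windows of 100 kb the most covered was 3L 15500001 to 15600000, at 55.7% in replicate 1 with 12 regions and at 54.5% in replicate 2 with 11. These finer windows were picked out after their values had been seen. The 20 most covered of the 98 windows of 250 kb held 37.8% of the marked sequence on 3L, against 38.0% in 18 of 92 on 2L, 35.9% in 22 of 111 on 3R and 38.0% in 18 of 89 on X.

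**Figure D3:**
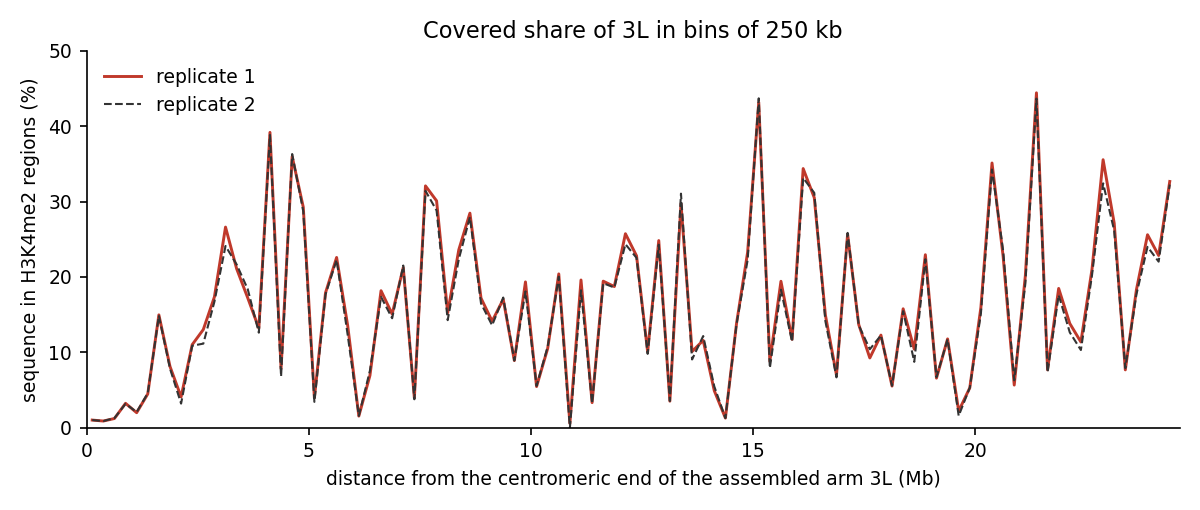
Share of sequence inside H3K4me2 regions in 98 bins of 250 kb, plotted by distance from the centromeric end of arm 3L, for replicate 1 (solid) and replicate 2 (dashed). The lines nearly coincide, the 6 bins nearest the end stay between 0.902% and 4.54%, and the highest bin reaches 44.0%.

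Differences in coverage between windows of 3L followed the number of regions more than their median length. Across the 24 windows the covered share had a Spearman rho of 0.923 and 0.934 with the number of regions, and of 0.181 and 0.115 with their median length, in replicates 1 and 2. These are descriptions across windows of one library. The covered share is built from the number and the lengths of regions, and a median responds little to the longest ones. In replicate 1 the 3 most covered windows had 19, 20 and 17 regions of 5 kb or more, and the 3 least covered 0, 3 and 6. With the counts of both replicates added, the rho with number was 0.937 on 3L, 0.905 on 2L, 0.936 on 3R and 0.876 on X. The number of regions ranged from 9 to 61 per window in replicate 1 and from 9 to 59 in replicate 2. The 2 sparsest windows differed in kind. The interior window 3L 10000001 to 11000000 had 16 regions in each replicate, whose median lengths were 3721 and 3375 bp and whose median scores, 1.66 and 1.53, lay above those of 3L (1.54 and 1.41). The window 3L 23000001 to 24000000, near the centromeric end, had 9 regions in each replicate, with shorter medians of 2688 and 2822 bp and with median scores of 1.18 and 1.25, below those of 3L.

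Coverage fell stepwise over the last 4 Mb toward the centromeric end of 3L. It was 19.4% ± 0.240 at a distance of 3 to 4 Mb from the end, 10.9% ± 0.624 at 2 to 3 Mb, 7.38% ± 0.0390 at 1 to 2 Mb and 1.60% ± 0.0024 in the last 1 Mb (SD, n = 2). At 250 kb the fall was not smooth. From 1.5 to 1.75 Mb before the end a bin with 8 regions in replicate 1 reached 15.0% and 14.9%, while the bin from 2 to 2.25 Mb had 4.10% and 3.21%. From 1.5 Mb to the end all 6 bins stayed below 5%, as did 9 of the 92 other bins of the arm. Of the 20 windows of 100 kb in the last 2 Mb, 10 had no region in either replicate (50.0%), against 20 of 225 elsewhere on 3L (8.89%).

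The last megabase held 6 regions in each replicate, and each of them had a counterpart in the other. In replicate 1 they lay at 3L 23571921 to 23574497, 23707717 to 23710575, 23730357 to 23733044, 24021221 to 24024310, 24223990 to 24226248 and 24529977 to 24532548. They were 2259 to 3090 bp long in replicate 1 and 2224 to 3227 bp in replicate 2, so none was broad, and their median length was 2633 and 2718 bp, against 3365 and 3389 bp on the rest of 3L. Their scores were 0.937 to 1.45 in replicate 1 and 0.745 to 1.42 in replicate 2, all below the median of the whole list (1.55 and 1.43). The last region of the arm, 3L 24529977 to 24532548, ended about 11 kb before the assembled end and scored 1.28 and 1.15. In the last 2 Mb there were 25 regions in each replicate, of which 4 and 3 were 5 kb or longer. The longest of these, 3L 22856070 to 22867358 (11.3 kb in replicate 1, 11.2 kb in replicate 2), scored 2.21 and 2.00 and lay within the densely marked bin. Over the last 2 Mb 28.0% and 32.0% of regions scored above the list's median, against 49.9% and 49.1% on the rest of 3L.

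The end of 3L was more sparsely marked than those of the other arms, relative to the rest of each arm. The last 1 Mb of 3L was covered to 0.0971 ± 0.0016 times the share of the rest of the arm, against 0.440 ± 0.0052 on 2L, 0.961 ± 0.0053 on 3R and 0.364 ± 0.00074 on X (SD, n = 2). The replicate values of 3L did not overlap those of any of these arms (two-sided exact permutation p = 0.5 each, the smallest possible with 2 libraries). Such values did not overlap in 31 of all 36 arm comparisons, so this alone does not set the end of 3L apart. The last 1 Mb held 6 and 6 regions on 3L, against 24 and 22 on 2L, 42 and 40 on 3R and 21 and 21 on X. The share of these regions that scored above their list's median was 0 in both replicates on 3L, against 33.3% and 40.9% on 2L, 54.8% and 55.0% on 3R and 66.7% and 52.4% on X. Over the rest of the arms it was 49.7% and 48.9% on 3L, 49.4% and 49.1% on 2L, 51.0% and 50.0% on 3R and 53.4% and 54.5% on X. The separate scaffold 3LHet, 2.56 Mb of 3L heterochromatin, had 16 regions in each replicate and 1.78% ± 0.0513 covered (SD, n = 2), close to the last 1 Mb of 3L. Neither the share of each end that can be aligned uniquely nor how far each assembled arm reaches into heterochromatin was measured. The last 1 Mb need not be a like segment on each arm, and the part of either in these differences was not tested.

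**Figure D4:**
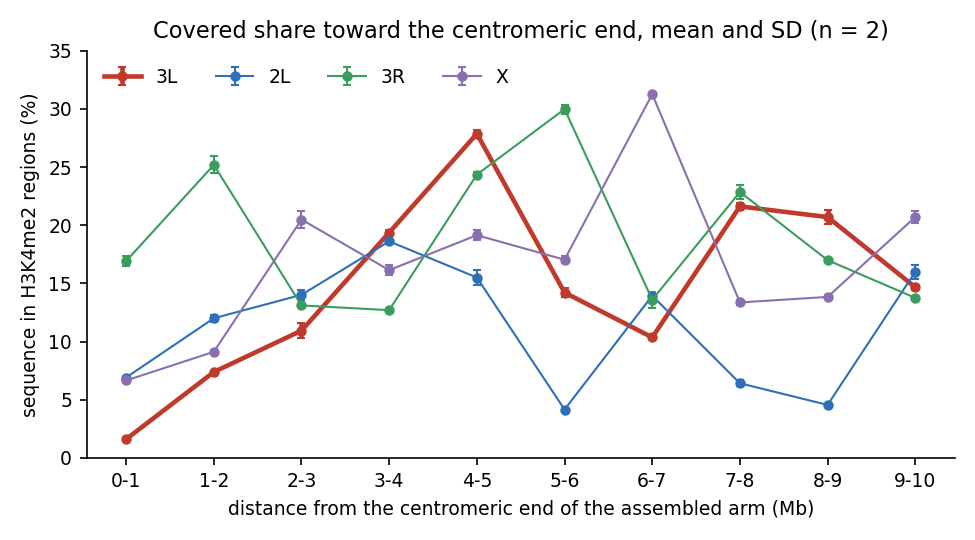
Mean covered share in bins of 1 Mb at increasing distance from the centromeric end, for arm 3L and for 2L, 3R and X; error bars are the SD of 2 replicates. On 3L the share climbs from 1.60% in the last 1 Mb to 27.9% at 4 to 5 Mb. In the last 1 Mb 2L shows 6.91%, X 6.65% and 3R 16.9%.

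The difference in covered share between 3L and 3R, the arms of one chromosome, was smaller without the centromeric ends, by an amount that depended on how much was left out. The values without the ends are additions made once the lists had been examined. Without the last 1 Mb, 3L minus 3R was -1.12 and -1.08 percentage points in replicates 1 and 2. The last 2 Mb was covered to 4.49% ± 0.0207 on 3L and to 21.1% ± 0.569 on 3R (SD, n = 2). Leaving it out therefore had to raise the share of 3L and lower that of 3R, by arithmetic alone. Without the last 2 Mb, 3L was covered to 16.9% ± 0.314 and 3R to 17.3% ± 0.316, a difference of -0.41 percentage points in each library, against -1.72 and -1.66 for whole arms. For 3L minus X it was -1.80 ± 0.134 points without the last 2 Mb and -1.85 ± 0.121 for whole arms. For 3L minus 2L it was 1.02 ± 0.0575 points without the last 2 Mb and 0.569 ± 0.0405 for whole arms (SD, n = 2; two-sided exact permutation p = 0.5 each, the smallest possible).

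The opposite, telomeric end of 3L was densely marked except for its tip. The first 1 Mb was covered to 23.1% ± 0.614 on 3L, against 25.0% ± 0.119 on 2L, 15.1% ± 0.150 on 3R and 17.5% ± 0.445 on X (SD, n = 2). The first region, 3L 128444 to 135391 in replicate 1 and 128141 to 135971 in replicate 2, began 128 kb from the assembled end in each. The outermost regions on 2L, 3R and X lay 5.02 ± 0.0325, 5.39 ± 0.0276 and 4.42 ± 0.0212 kb from their telomeric ends (SD, n = 2; two-sided exact permutation p = 0.5 for 3L against each, the smallest possible). The combined list also had 0 regions in the first 128 kb of 3L. What the assembled sequence holds there was not analysed here.

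Both immunoprecipitates marked nearly the same sequence on 3L. They shared 3.72 Mb, or 91.3% of the 4.08 Mb marked in either, against 91.4% on 2L, 91.8% on 3R and 90.1% on X. Of the regions of replicate 1, 873 of 918 (95.1%) overlapped one of replicate 2, against 95.4% on 2L, 95.7% on 3R and 95.9% on X. In the opposite direction 885 of 907 did (97.6%), against 98.1% on 2L, 97.9% on 3R and 95.8% on X. Agreement on 3L was thus close to that on the other arms. The 822 pairs matched one-to-one placed their edges close together, with a median shift of 63.0 bp and a 90th percentile of 301 bp. The region was longer in replicate 1 in 485 of the 822 pairs (59.0%), by a median of 33.5 bp, and it scored higher there in 702 (85.4%). On 2L, 3R and X replicate 1 scored higher in 84.9%, 86.1% and 86.0% of pairs, so the shift was shared by the arms. The order of the scores on 3L was nearly the same in both lists, with a Spearman rho of 0.978 across the pairs, which share their libraries and are not independent.

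**Figure D5:**
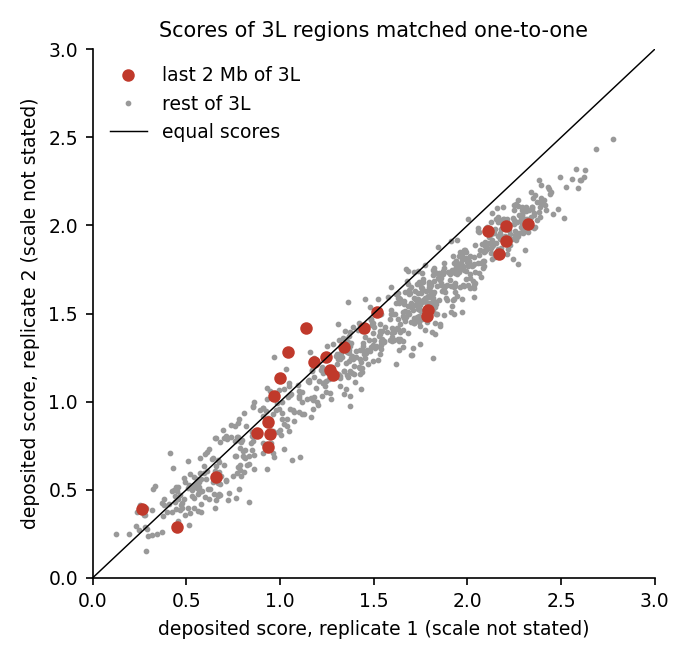
Deposited scores of 822 regions of arm 3L matched one-to-one, with replicate 1 on the x axis and replicate 2 on the y axis; large points are the 25 pairs of the last 2 Mb, small points the other 797, and the line marks equal scores. Below the line lie 702 of the 822 points (85.4%) and, a smaller share, 18 of the 25 pairs near the centromeric end.

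Regions of 3L found in a single replicate were short and low-scoring, with 1 exception. There were 45 in replicate 1, of 1339 to 2816 bp, and 22 in replicate 2, of 1305 to 2100 bp, and none lay in the last 2 Mb. Their median score was 0.407 in replicate 1 and 0.379 in replicate 2, against 1.60 and 1.43 for regions with a counterpart. The exception, 3L 13567805 to 13569235 in replicate 1, was 1431 bp long and had the highest score of that list, 2.87. Among the other regions under 2 kb on 3L in replicate 1 the highest score was 0.632. It stood alone, 59.4 kb after its left neighbour and 289 kb before its right one, and replicate 2 had no region over the whole 351 kb between these neighbours. The combined list contained it as 3L 13567709 to 13569219 with a score of 1.36, below 473 other regions of 3L in that list. Its score of 2.87 was also that of 1 region on the unplaced sequence U in the same list, to all digits given. The next of replicate 1 were 3L 1626364 to 1628494 (0.67) and 3L 14611627 to 14614240 (0.65). In replicate 2 they were 3L 3825280 to 3827341 (0.52), 3L 19032019 to 19033776 (0.51) and 3L 6935930 to 6937234 (0.51).

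The deposited combined list, a pooled value with no error, had 967 enriched regions on 3L covering 17.3% of the arm. Of these, 848 (87.7%) overlapped both replicates, 65 a single replicate and 54 (5.58%) neither. On 2L, 3R and X, 87.3%, 88.3% and 84.4% overlapped both, and 6.58%, 5.99% and 8.39% neither. In the 54 the median length was 1207 bp and the median score 0.306, and in the 848 they were 3786 bp and 1.46. The first by score, 3L 8491408 to 8492408, was an exception, with 2.00 at 1001 bp, which is the shortest length in the combined list on this arm. In the last 1 Mb the combined list had 8 regions, of which 6 were those of both replicates and 2 were in neither, at 3L 23664756 to 23666016 and 23683232 to 23684262. The combined list also held 2 depleted regions on 3L, out of 3 in all, and neither replicate list had any. The region at 3L 15677408 to 15678974 scored -0.00090 and lay 11.8 kb in replicate 1 and 11.7 kb in replicate 2 from the nearest enriched region. That at 3L 20315400 to 20316971 scored -0.131 and lay 3.03 and 3.13 kb from one. The first score is close to 0, and how these regions were chosen is not given in the sources used here.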

How the data were processed

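ChIP-seq of H3K4me2 in Oregon-R larvae was used as lists of regions in GFF3 format, 1 for each immunoprecipitate and 1 combined. The aligner, per the submitters' processing notes, was Bowtie 0.12.7, and coordinates follow FlyBase release 5, per the file headers. The score of each region was deposited by the authors on a scale that the files do not state. The deposited start and end, in base pairs, were used as given, from 1 with both ends included. Neither the caller nor its threshold nor its length limits is given in the sources used here. No values of the inputs were used, and depth is unknown.

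From the lists, lengths, gaps, covered shares of arms and of windows, and the overlap of replicates (at least 1 bp) were computed for 3L and for 2L, 3R and X. The centromeric end is the high-coordinate end of 3L, 2L and X and the low-coordinate end of 3R. Means and SDs are over the 2 immunoprecipitates. Arms were compared by an exact two-sided permutation test that swaps arms within each library. Windows and regions of a library are not replicates, and no p was computed across them. Intervals over regions or pairs were used only to label a few of the alternatives below. Interval code was tested on simulated lists. Regions named below were the 10 longest and the 10 with the highest mean score found in both replicates, the 3 highest-scoring of each replicate without a counterpart, the 5 longest unmarked stretches, the first and last regions, those in the last 1 Mb, the 3 most and 3 least covered windows of 1 Mb, and the 3 longest runs of close regions. Both sets of 10 were taken from pairs matched one-to-one, and the longest were ranked by the shorter of the 2 lengths. Regions, stretches, windows and bins outside these rules were named after their values had been seen. The members, rules and alternatives were chosen with earlier results of these data known. The gene table at hand follows release 6, so regions carry no gene or sequence. Its symbols were used only to place 4 background genes on an arm. The work used Python 3.11.15 with pandas 2.3.3, numpy 2.4.6, matplotlib 3.10.9 and scipy 1.17.1.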

Additional observations from a re-analysis of the deposited data

How the results depend on the processing

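Of 192 alternatives over 31 results, 152 left the value or its direction in place. Values on 3L themselves stayed in place in only 23 of 60. Both counts include alternatives that left 1 replicate out, and these make up most of the 23. For values with a replicate SD, in place meant within 1 SD of the mean of the 2 replicates. A single replicate always lies within 1 SD of a mean of 2, so leaving 1 replicate out tested nothing for such means. Shared bases, shares with a counterpart and the rho of scores had no replicate SD. Their alternatives were placed by intervals that took regions or pairs as independent. Regions of a library are not independent, so those placements carry no weight. Differences between 3L and another arm kept their direction in 129 of 132 alternatives. The exceptions were regions per Mb, 3L minus X, at -1.21 with only regions scoring above their list's median (1.30 with all regions), the share of broad regions, 3L minus 2L, at -0.50 points with a limit of 10 kb (0.983 at 5 kb), and median length, 3L minus 2L, at -3.50 to 77.0 bp without one replicate. Exact p-values over 2 libraries can pass no threshold, so these directions are no measure of stability.

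With only regions above the median score, 3L had 10.1% covered, 18.2 regions per Mb, a median length of 4638 bp, 43.3% of regions of 5 kb or more, a median gap of 15.6 kb and 87.3% of bases shared, and the last 1 Mb was covered to 0 times the rest. With regions under 500 bp apart joined, these were 34.7 regions per Mb, 3568 bp, 29.8% and a gap of 8.94 kb. With only regions of 2 kb or more they were 15.3%, 33.7 per Mb, 3653 bp, 28.9% and 8.48 kb, with an end ratio of 0.101. In the combined list they were 17.3%, 39.4 per Mb, 3412 bp, 28.7% and 7.08 kb, with a ratio of 0.105. Broad regions were 57.0% at 3 kb and 4.65% at 10 kb. The end ratio was 0.0596 for 500 kb, 0.266 for 2 Mb and 0.386 for 3 Mb. The lowest, median and highest windows were 1.08%, 16.4% and 32.2% at 500 kb, and 0%, 15.0% and 44.7% at 250 kb. With 50% of both regions overlapped, 92.8% and 93.9% of regions had a counterpart, and the rho of scores was 0.974. Most of these shifts follow from the construction of the limit.

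No paired analysis was possible because no numbered input has a list to set against its immunoprecipitate. The arms of a library were swapped within it, so the comparisons between arms already hold the library as a block. Read depth was not available to set limits on any value.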
